A study of Mus musculus with 24 samples.

Results

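The Sprr and Lce genes code for small proline-rich proteins and late cornified envelope proteins of the skin barrier. They were taken from the deposited gene table as the rows whose mouse symbol starts with Sprr or Lce followed by a digit, which gave 38 of 51912 genes: 17 Sprr genes, 14 Lce1 genes, 6 Lce3 genes and Lce6a. PolyA RNA of whole ears of C57BL/6 mice was sequenced in 4 groups of 6 libraries: Card14E138A ears at day 5, WT ears at day 5, Card14E138A ears at 1 month and WT ears at 1 month. All mice, WT included, had received tamoxifen into the peritoneum on 3 days in a row, and the times run from the first injection. In the Card14LSL-E138A knock-in, tamoxifen acts through CreERT2 and the mutant protein is then made from the mouse's own Card14 locus; the promoter that drives CreERT2, the ages of the mice and whether WT mice carried CreERT2 are not given in the sources used here. CARD14 is a keratinocyte scaffold protein upstream of NF-κB, and the E138A form, associated with psoriasis, keeps that signalling on. The comparisons ask for the early and the lasting effect of the mutation.

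The cornified envelope is the protein shell that replaces the plasma membrane of keratinocytes as they die to form the outermost skin layer. Transglutaminases crosslink loricrin, involucrin, small proline-rich and late cornified envelope proteins into it. Their genes lie together in the epidermal differentiation complex. In mouse and human skin, Lce1 genes belong to normal late differentiation, whereas Lce3, Sprr1 and Sprr2 genes are known to be low in resting skin and high in wounded, inflamed or psoriatic epidermis. SPRR4 is known from human skin as a late gene that responds to ultraviolet light.

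Total counts per library lay between 15661515 and 23904976. The labels do not say that the libraries of a group came from separate animals, so p-values measure the spread between these libraries. Among the Card14E138A day 5 libraries, replicates 1 and 3 lay nearest to WT on the first principal component of all genes (42% of the variance). At 1 month the libraries spread along the second (24.1%), and in 3 of them (WT replicate 2, Card14E138A replicates 1 and 6) the deviation of genes from the median library followed GC content with a correlation above 0.4.

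The genes split by subfamily in Card14E138A ears: nearly all Sprr genes and all 6 Lce3 genes rose, while Lce1 genes fell. At day 5, 14 of the 15 Sprr genes with enough counts to be tested rose, with a median log2 fold change of 7.15 over WT, and 6 of 6 Lce3 genes rose, with a median of 4.96. Over the same comparison 13 of 14 Lce1 genes fell, with a median of -1.64, and Lce6a fell (-0.95 ± 0.38, SE, adjusted p = 0.0469). In all, 20 of the 36 tested members rose and 14 fell (edgeR's quasi-likelihood test, Benjamini-Hochberg adjusted p under 0.05 over 17287 genes), where 40.9% of all genes tested passed, 20.7% higher and 20.2% lower, and the median over all genes was -0.02. Sprr4 (-1.03 ± 0.51, adjusted p = 0.109) and Lce1k (-0.24 ± 0.33, adjusted p = 0.591) did not pass. Of the 38 members, Sprr2c-ps had no count in any library and Sprr3 had 10 counts in all, so neither was tested. In bulk RNA, fewer cells of a type and less RNA per cell cannot be told apart.

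At 1 month all 36 tested members passed the test, 20 higher and 16 lower, where 47.1% of all genes passed, 25.5% higher and 21.5% lower. The same 14 Sprr genes that had risen at day 5 rose, with a median log2 fold change of 5.46, and Sprr4 fell. All 6 Lce3 genes rose (median 4.86), all 14 Lce1 genes fell (median -2.21), and Lce6a fell (-2.08 ± 0.39, adjusted p = 0.000118). The median over all genes was 0.05. The 6 Card14E138A libraries lay apart from the 6 WT libraries in 16 rising and 12 falling members at day 5, where 34.3% of all genes had groups apart, 17.9% higher and 16.4% lower. At 1 month this was so in 20 rising and 10 falling members, where 21.2% of all genes had groups apart, 12.2% higher and 9.05% lower. No member that passed at both times changed direction between them.

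Keratinocyte markers were high in every library, with the sum of 8 markers at 31245 to 41394 CPM (counts per 1000000 counts of the library) in Card14E138A ears and 26316 to 36088 CPM in WT ears on day 5. At 1 month the sum was 34210 to 53920 CPM in Card14E138A ears and 18582 to 32500 CPM in WT ears. Of these 8 markers, 2 rose at day 5, and 3 rose and 1 fell at 1 month. The higher sum at 1 month rested mostly on 2 of them. Krt1 was at 11716 ± 2780 CPM in Card14E138A ears and 856 ± 441 CPM in WT ears. Krt14 was at 10262 ± 2776 and 4269 ± 1184 CPM (SD, n = 6 each). The means of Krt5, Dsp and Pkp1 differed less, and those of Krt10, Trp63 and Perp were lower in Card14E138A ears. Of the neutrophil markers, 4 of 5 tested rose at both times and Mpo fell at day 5, and the sum of all 7 was 50.1 to 281 CPM in Card14E138A ears against 5.75 to 8.28 CPM in WT ears at day 5, and 66.3 to 99.01 CPM in Card14E138A ears against 4.06 to 14.9 CPM in WT ears at 1 month. Of the 7, Ly6g was at 0 in every WT day 5 library. Macrophage markers rose in 4 of 5 cases at day 5 and in 5 of 5 at 1 month (sums of 316 to 873 CPM in Card14E138A ears and 236 to 286 CPM in WT ears at day 5, and 443 to 785 CPM in Card14E138A ears and 188 to 399 CPM in WT ears at 1 month). The other marker lists, of 4 genes tested each, moved as follows. T cell markers fell in 3 cases at day 5, and fell in 3 and rose in 1 at 1 month (11.1 to 29.2 CPM in Card14E138A ears and 35.4 to 51.1 CPM in WT ears at day 5, 7.99 to 18.01 CPM in Card14E138A ears and 41.0 to 53.8 CPM in WT ears at 1 month). Fibroblast markers fell in 2 cases and rose in 1 at day 5, and rose in 3 and fell in 1 at 1 month (3720 to 5950 CPM in Card14E138A ears and 9439 to 13008 CPM in WT ears at day 5, 7005 to 20663 CPM in Card14E138A ears and 5753 to 9744 CPM in WT ears at 1 month). Cartilage markers fell in 4 cases at day 5 and 3 at 1 month (151 to 282 CPM in Card14E138A ears and 357.1 to 498 CPM in WT ears at day 5, 139 to 296 CPM in Card14E138A ears and 299 to 731 CPM in WT ears at 1 month). Skeletal muscle markers fell in 3 cases at day 5 and 4 at 1 month (845 to 1622 CPM in Card14E138A ears and 2110.5 to 3004 CPM in WT ears at day 5, 352 to 2506 CPM in Card14E138A ears and 3022 to 11360 CPM in WT ears at 1 month). Adipocyte markers fell in 3 cases at day 5 and 4 at 1 month (125 to 235 CPM in Card14E138A ears and 263 to 438 CPM in WT ears at day 5, 121 to 202 CPM in Card14E138A ears and 349.9 to 775 CPM in WT ears at 1 month). Hair shaft markers passed the test in 0 cases at day 5 by edgeR and rose in 4 of 4 at 1 month (0 to 0.432 CPM in Card14E138A ears and 0.0653 to 0.810 CPM in WT ears at day 5, 19.3 to 132 CPM in Card14E138A ears and 0.368 to 9.89 CPM in WT ears at 1 month). Beside these counts, 20.7% of all genes tested rose and 20.2% fell at day 5, and 25.5% rose and 21.5% fell at 1 month. The part of these cell types in the results on Sprr and Lce genes was not tested.

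**Figure D1:**
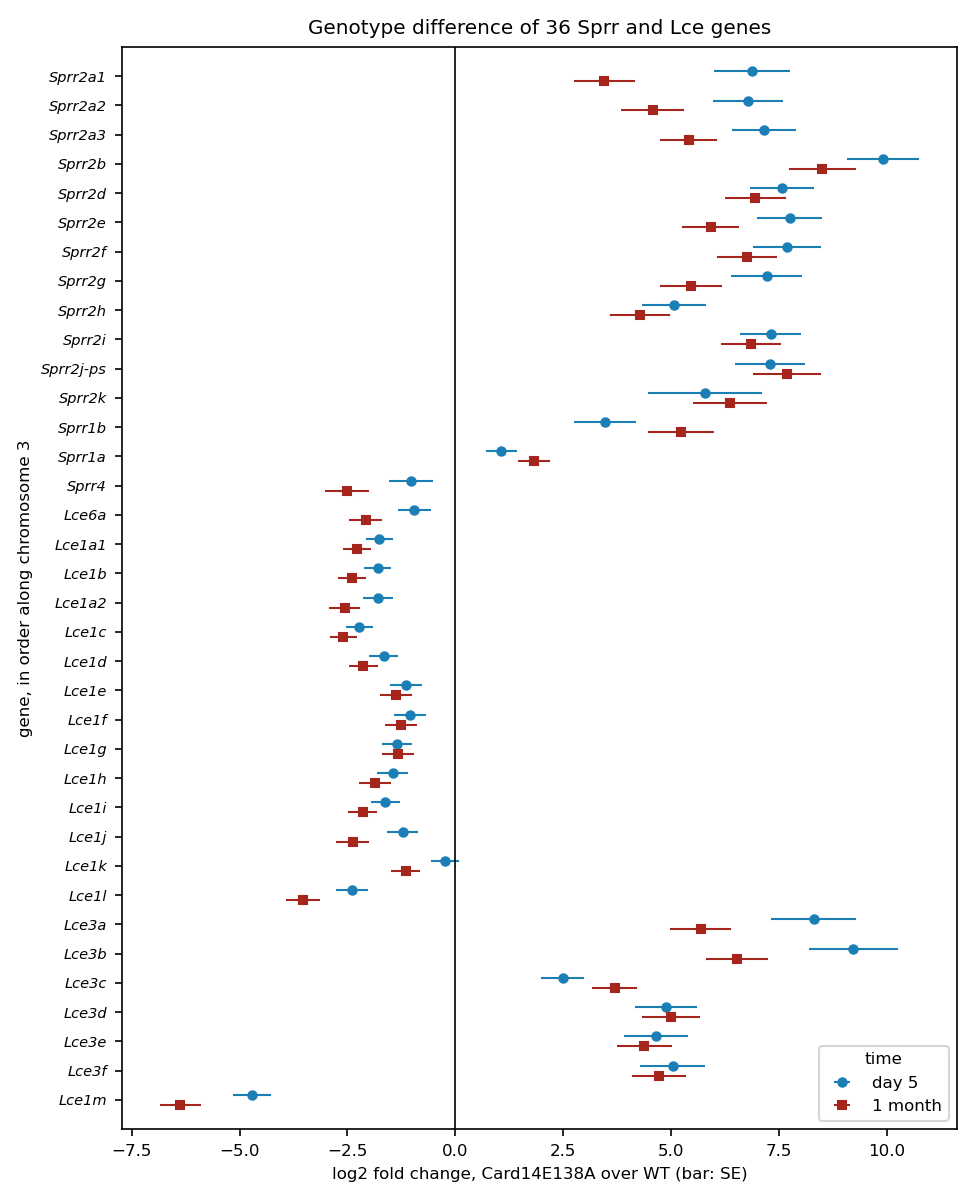
The log2 fold change of Card14E138A over WT ears is plotted on the horizontal axis for the 36 tested Sprr and Lce genes, in the order in which they lie along chromosome 3, with circles for day 5, squares for 1 month and bars for the SE. Sprr and Lce3 genes other than Sprr4 lie right of 0, from 1.06 (Sprr1a, day 5) to 9.90 (Sprr2b, day 5), and Lce1 genes lie left of it, down to -6.37 (Lce1m, 1 month).

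The 38 members span 803.3 kb of chromosome 3 (GRCm38), chr3:92215799-93019060, largely in blocks by subfamily. The direction followed the subfamilies, so place and subfamily cannot be told apart within these blocks. The Sprr block (92215799 to 92500493) opens with Sprr2a1 and ends with Sprr4, the only tested Sprr gene with a negative log2 fold change at both times. After a gap of 119.6 kb come Lce6a and the 13 genes from Lce1a1 to Lce1l (92646535 to 92851286), all with negative values. The Lce3 block (92925287 to 92993426) had only positive values. Lce1m, which lies 24.4 kb beyond the last Lce3 gene and apart from the other Lce1 genes, had the most negative value of all members at both times. The sign therefore changed 3 times along the tested members, at the same places at day 5 and at 1 month. At the first of these places, the day 5 value of Sprr4 did not pass the test.

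**Figure D2:**
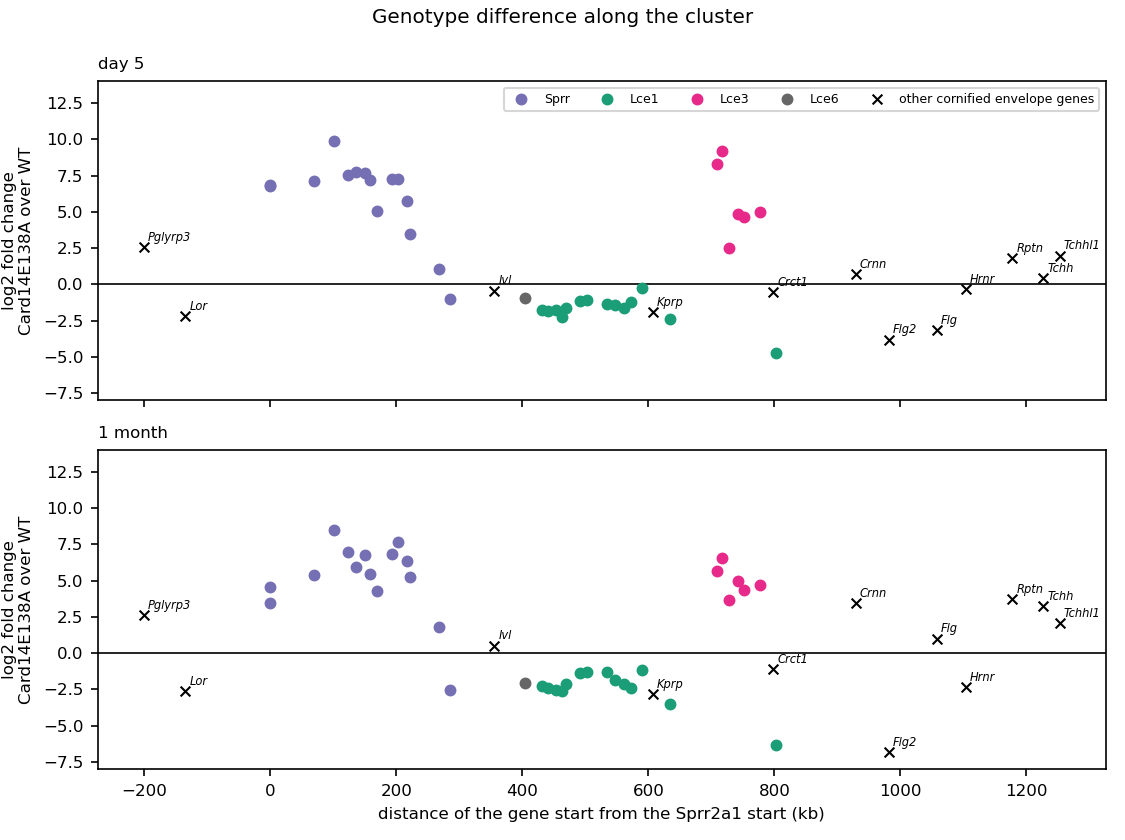
The log2 fold change of Card14E138A over WT ears is plotted against the distance of each gene start from the Sprr2a1 start in kb, at day 5 (upper panel) and 1 month (lower panel), with Sprr, Lce1, Lce3 and Lce6 genes in separate colours and other cornified envelope genes of the region as labelled crosses. Sprr genes from 0 to 268.2 kb and Lce3 genes from 709.5 to 776.4 kb lie above 0, and the Sprr and Lce genes from Sprr4 at 284.5 kb to Lce1l at 634.2 kb, and Lce1m at 802 kb, lie below it. The cross of Ivl, between Sprr4 and Lce6a, lies at -0.42 at day 5 and 0.52 at 1 month. The crosses include Pglyrp3, a peptidoglycan recognition gene of the same list.

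The 200 bases before the annotated start site are shown for 6 members. Where transcription began in these ears was not tested. They are a pair of strongly rising Sprr2 genes, Sprr1b, the falling Sprr4, the Lce3 gene with the largest rise and the Lce1 gene with the largest fall. Sequences are from RefSeq (GRCm38.p6), 5′ to 3′ on the strand of the gene. Capitals mark TGANTCA, the core to which AP-1 factors bind, and TATAAA, the TATA box. These 6 members do not represent their subfamilies. The windows of the Sprr2a copies, not shown, hold neither motif, and of the Lce1 windows only those of Lce1d and Lce1m hold TATAAA.
Sprr2d, chr3:92338940-92339139, plus strand: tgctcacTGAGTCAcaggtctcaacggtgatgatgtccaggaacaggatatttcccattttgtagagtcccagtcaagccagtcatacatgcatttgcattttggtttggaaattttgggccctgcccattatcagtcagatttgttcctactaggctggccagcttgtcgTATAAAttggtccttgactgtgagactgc
Sprr2e, chr3:92351943-92352142, plus strand: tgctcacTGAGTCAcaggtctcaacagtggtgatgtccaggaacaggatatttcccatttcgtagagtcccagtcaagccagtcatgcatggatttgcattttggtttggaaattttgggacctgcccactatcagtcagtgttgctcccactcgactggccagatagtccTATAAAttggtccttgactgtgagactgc
Sprr1b, chr3:92438780-92438979, minus strand: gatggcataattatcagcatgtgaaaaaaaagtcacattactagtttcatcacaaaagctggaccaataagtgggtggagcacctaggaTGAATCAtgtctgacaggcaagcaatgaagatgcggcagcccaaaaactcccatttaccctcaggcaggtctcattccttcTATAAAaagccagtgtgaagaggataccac
Sprr4, chr3:92500494-92500693, minus strand: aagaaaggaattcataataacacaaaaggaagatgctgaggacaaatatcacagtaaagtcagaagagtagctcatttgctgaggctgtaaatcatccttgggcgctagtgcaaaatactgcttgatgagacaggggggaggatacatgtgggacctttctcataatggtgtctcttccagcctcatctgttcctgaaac
Lce3b, chr3:92932779-92932978, plus strand: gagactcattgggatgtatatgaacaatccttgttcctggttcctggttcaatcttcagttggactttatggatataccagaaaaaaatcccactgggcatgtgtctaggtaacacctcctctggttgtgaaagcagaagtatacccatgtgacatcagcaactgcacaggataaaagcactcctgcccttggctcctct
Lce1m, chr3:93019062-93019261, minus strand: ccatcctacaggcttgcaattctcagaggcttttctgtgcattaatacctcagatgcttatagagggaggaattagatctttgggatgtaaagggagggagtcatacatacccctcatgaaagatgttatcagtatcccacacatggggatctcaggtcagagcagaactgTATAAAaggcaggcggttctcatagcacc

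Windows of 250 bases before to 50 after the start site were at hand for 34 of the 38 members and for 32851 genes in all, and each motif was searched on both strands. TGANTCA stood in 9 of 14 Sprr windows, in 0 of 13 Lce1 windows and in 0 of 6 Lce3 windows, against 7.81% of all windows. In 7 of 10 Sprr2 windows its first base lay 193 to 198 bases before the start site, and Sprr2k held another match 182 bases before it. The windows of Sprr2a1, Sprr2a2 and Sprr2a3 held neither TGANTCA nor TATAAA. Any other start sites of these genes were not searched. Sprr1b had 1 match, 111 bases before the start site, and Sprr1a had matches at 146 and 116 bases. TATAAA stood in 10 of 14 Sprr, 2 of 13 Lce1 and 1 of 6 Lce3 windows, against 13.6% of all windows, and in the 7 Sprr2 windows it began 29 bases before the start site. The NF-κB core was searched as GGG and CC with any 5 bases between them. It stood in 8 of 14 Sprr, 7 of 13 Lce1 and 1 of 6 Lce3 windows, against 50.8% of all windows. The 8 Sprr windows that held it were all among the 10 Sprr2 windows. CACCC, which KLF factors bind, stood in 7 of 14, 6 of 13 and 2 of 6, against 57.5%. TGACNNNGC, the antioxidant response element core, stood in 2 of 14 Sprr, 1 of 13 Lce1 and 3 of 6 Lce3 windows, against 12.4%, and the grainyhead-like motif AACNGGTT in none of the windows of the 3 subfamilies, against 2.09%. Promoters of a subfamily are in part alike and so are not independent: the median identity of a pair of windows was 63.1% within Sprr2, 65.7% within Lce1 and 59.5% within Lce3, against 51.5% to 52.8% between them. Sprr2d and Sprr2e were 89.1% identical, while some windows were no more like their own subfamily than like another: Lce1m had a median identity of 53.8% to the other Lce1 windows, Lce1l lay between 51.0% and 56.2%, and the Sprr2a copies lay between 49.2% and 53.3% to the other Sprr2 windows. Any overlap between matches of different motifs was left as found, and a match is a stretch of letters that does not show binding.

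The Sprr2 genes, which code for small envelope crosslinking proteins, rose by 5.07 to 9.90 on the log2 scale at day 5, more than Sprr1a and Sprr1b. At 1 month they rose by 3.45 to 8.50, and Sprr1b (5.23) rose more than Sprr2a1, Sprr2a2 and Sprr2h. Sprr2b was at 15.7, 121 and 239 CPM (lowest, median and highest library) in Card14E138A ears at day 5, against 0, 0.152 and 0.175 CPM in WT ears, a log2 fold change of 9.90 ± 0.84 (adjusted p = 5.7e-09). At 1 month it was at 20.9, 47.8 and 130.0 CPM in Card14E138A ears, against 0, 0.0927 and 0.632 CPM in WT ears (8.50 ± 0.78, adjusted p = 9.44e-09). The lowest Card14E138A library lay above every WT library at both times.

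Sprr2d had the highest mean CPM of the Sprr2 genes outside the Sprr2a copies. It was at 57.3, 335 and 593 CPM in Card14E138A ears at day 5, against 0.907, 1.68 and 2.51 CPM in WT ears (7.57 ± 0.74, adjusted p = 4.16e-08). At 1 month it was at 207, 305 and 524 CPM in Card14E138A ears, against 0.287, 1.56 and 10.1 CPM in WT ears (6.95 ± 0.71, adjusted p = 4.37e-08). The groups did not overlap, and the WT value of 10.1 CPM belonged to replicate 3 at 1 month. Sprr2e, whose promoter is printed above beside that of Sprr2d, was at 6.53, 67.3 and 111 CPM in Card14E138A ears at day 5, against 0.0604, 0.309 and 0.464 CPM in WT ears (7.74 ± 0.76, adjusted p = 4.94e-08). At 1 month Sprr2e was at 29.2, 45.8 and 93.8 CPM in Card14E138A ears, against 0.177, 0.431 and 2.53 CPM in WT ears (5.91 ± 0.66, adjusted p = 1.47e-07).

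Sprr2f, Sprr2g, Sprr2h and Sprr2i rose at both times without overlap, with log2 fold changes of 5.07 to 7.68 at day 5 and 4.28 to 6.85 at 1 month. Of these, Sprr2h had the highest WT level: it averaged 87.95 ± 64.55 CPM in Card14E138A ears and 2.62 ± 1.69 CPM in WT ears at day 5 (SD, n = 6 each). Sprr2g is annotated as a polymorphic pseudogene. Sprr2j-ps, whose symbol marks a pseudogene and whose annotated biotype is protein coding, rose as well. It was at 0.415, 12.8 and 22.7 CPM in Card14E138A ears at day 5, against 0, 0.0616 and 0.175 CPM in WT ears (7.29 ± 0.82, adjusted p = 3.25e-07), and at 8.46, 16.6 and 24.1 CPM in Card14E138A ears at 1 month, against 0, 0.0463 and 0.196 CPM in WT ears (7.68 ± 0.79, adjusted p = 4.69e-08). None of its 75-base words occurs in another gene, so at that length it shares no reads with the other copies. With the day 5 libraries fitted alone, Sprr2j-ps and Sprr2k did not pass the filter on low counts and were not tested.

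Sprr2k, the last Sprr2 gene of the row, was barely detected. It had 36 counts over the 6 Card14E138A libraries and 0 over the 6 WT libraries at day 5, at least 11.3-fold higher when 3 counts in all are taken for the WT group. At 1 month it had 216 counts in Card14E138A and 2 in WT ears, a ratio of 114 (95% counting interval 31.1 to 945, counting error only). Sprr3, an oral and oesophageal envelope gene, had 1 count in Card14E138A ears and 0 in WT ears at day 5. At 1 month Sprr3 had 9 counts in Card14E138A ears against 0 in WT ears, at least 3.16-fold higher by the same bound.

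The Sprr2a copies made up most of the Sprr signal of Card14E138A ears. Sprr2a2 was at 1228, 3455 and 5001 CPM in Card14E138A ears at day 5, against 8.40, 21.9 and 82.2 CPM in WT ears (6.78 ± 0.81, adjusted p = 6.88e-07). At 1 month Sprr2a2 was at 4944, 7060 and 10510 CPM in Card14E138A ears, against 36.3, 196 and 1005 CPM in WT ears (4.57 ± 0.73, adjusted p = 1.6e-05). The groups did not overlap, and the highest WT library at 1 month was replicate 3. Sprr2a1 was at 51.15, 131 and 174 CPM in Card14E138A ears at day 5, against 0, 0.858 and 2.32 CPM in WT ears (6.87 ± 0.88, adjusted p = 1.6e-06). Sprr2a1 was at 91.5, 128 and 147 CPM in Card14E138A ears at 1 month, against 0.328, 5.45 and 34.1 CPM in WT ears (3.45 ± 0.71, adjusted p = 0.000311). Sprr2a3 rose by 7.15 ± 0.75 at day 5 and 5.40 ± 0.66 at 1 month.

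Counts of these copies are uncertain one by one. Of the 75-base words of their transcripts, 94.3% in Sprr2a1, 94.7% in Sprr2a2 and 47.5% in Sprr2a3 also occur in another gene, the exons of Sprr2a1 and Sprr2a2 overlap on the same strand, and the promoter windows of those 2 genes are identical. RSEM divides such reads between genes. With the 3 copies summed to 1 row, the log2 fold change was 6.79 ± 0.81 at day 5 (adjusted p = 6.32e-07) and 4.57 ± 0.72 at 1 month (adjusted p = 1.51e-05). The 3 copies together gave 75.3% to 91.5% of the summed Sprr CPM in Card14E138A ears at day 5, against 12.7% to 65.2% in WT ears, and 82.6% to 88.2% in Card14E138A ears at 1 month, against 28.9% to 91.2% in WT ears.

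Sprr1a and Sprr1b code for envelope proteins known as markers of squamous differentiation and of stressed epidermis, and no 75-base word of theirs is shared. Sprr1b was at 7.71, 72.6 and 258 CPM in Card14E138A ears at day 5, against 4.57, 7.60 and 16.6 CPM in WT ears, a log2 fold change of 3.46 ± 0.72 (adjusted p = 0.000456). Replicate 1 of the Card14E138A libraries lay inside the WT range. At 1 month Sprr1b was at 229, 370.2 and 564 CPM in Card14E138A ears, against 1.19, 8.05 and 22.7 CPM in WT ears, without overlap (5.23 ± 0.77, adjusted p = 6.01e-06). Sprr1a was at 21.3, 94.2 and 164 CPM in Card14E138A ears at day 5, against 33.4, 46.9 and 56.1 CPM in WT ears (1.06 ± 0.36, adjusted p = 0.0213), and Card14E138A replicate 1 was lower than every WT library while replicate 3 lay inside the WT range. At 1 month Sprr1a was at 158, 229.5 and 399.9 CPM in Card14E138A ears, against 48.2, 72.0 and 113 CPM in WT ears, without overlap (1.83 ± 0.37, adjusted p = 0.000223). The day 5 call of Sprr1a was lost without Card14E138A replicate 5 or replicate 6.

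**Figure D3:**
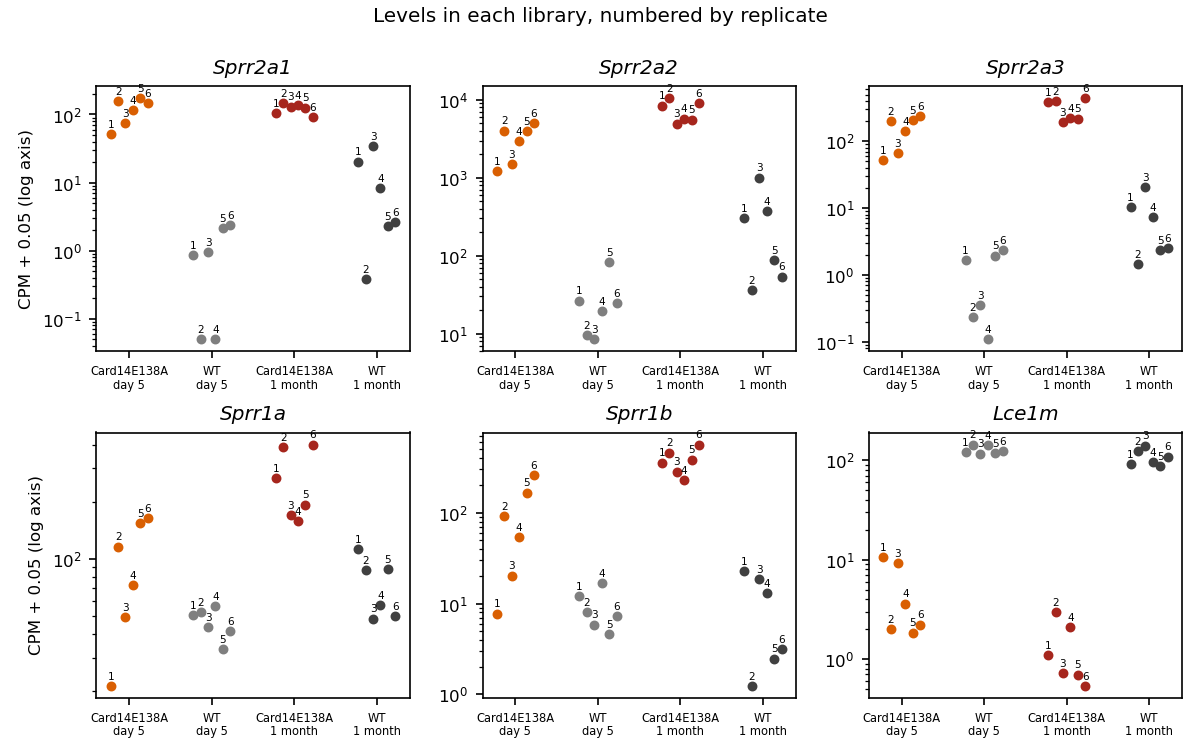
Levels of Sprr2a1, Sprr2a2, Sprr2a3, Sprr1a, Sprr1b and Lce1m in each library are plotted as CPM + 0.05 on a log axis, with each point numbered by its replicate and the groups in the order Card14E138A day 5, WT day 5, Card14E138A 1 month and WT 1 month. Card14E138A day 5 replicates 1 and 3 are the lowest of their group in the 5 Sprr genes and the highest in Lce1m.

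Sprr4 was the exception of its subfamily. Its window, like those of the rising Sprr2a copies, held neither TGANTCA nor TATAAA. Its annotated exons come to 231 bases. The annotation may lack the first part of the gene, so the window may not be its promoter. Sprr4 was at 0, 0.536 and 1.26 CPM in Card14E138A ears at 1 month, against 1.63, 3.16 and 8.17 CPM in WT ears. The groups did not overlap (edgeR, log2 fold change -2.51 ± 0.52, adjusted p = 0.000309). At day 5 it was at 0.119, 1.08 and 1.91 CPM in Card14E138A ears and 1.31, 2.33 and 2.80 CPM in WT ears, with overlap, and among the settings run, the difference passed the test only when the day 5 libraries were fitted alone (-1.01, adjusted p = 0.0266). At these levels it rests on 115 counts in Card14E138A and 220 counts in WT ears at day 5.

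The Lce3 genes, which code for late envelope proteins of injured and psoriatic epidermis, were close to absent in WT ears. Lce3b was at 1.01, 9.47 and 21.5 CPM in Card14E138A ears at day 5, against 1 count over all 6 WT libraries, a ratio of 955 (95% counting interval 171 to 37700). At 1 month Lce3b was at 6.88, 14.7 and 26.7 CPM in Card14E138A ears, against 0, 0.0706 and 0.508 CPM in WT ears (6.53 ± 0.72, adjusted p = 1.29e-07). Lce3a was at 1.01, 7.22 and 19.3 CPM in Card14E138A ears at day 5, against 2 counts over the WT libraries, a ratio of 408 (113 to 3380). At 1 month Lce3a was at 4.755, 12.01 and 24.6 CPM in Card14E138A ears, against 0, 0.115 and 0.8995 CPM in WT ears (5.68 ± 0.70, adjusted p = 5.87e-07). In both genes every Card14E138A library lay above every WT library.

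Lce3c had the highest WT level of the subfamily at day 5 and the smallest rise. It was at 2.37, 9.19 and 17.6 CPM in Card14E138A ears at day 5, against 0.868, 1.46 and 2.47 CPM in WT ears (2.49 ± 0.50, adjusted p = 0.000344), and only its lowest Card14E138A library overlapped WT. At 1 month it was at 7.06, 12.6 and 21.2 CPM in Card14E138A ears, against 0.0821, 0.8445 and 2.03 CPM in WT ears (3.69 ± 0.52, adjusted p = 3.52e-06), without overlap. Lce3d, Lce3e and Lce3f rose by 4.65 to 5.03 on the log2 scale at day 5 and by 4.38 to 5.00 at 1 month. Of the 75-base words of Lce3c, Lce3d, Lce3e and Lce3f, 28% to 45.6% occur in another Lce3 gene, so their values are partly shared. The shares for Lce3a and Lce3b are 9.5% and 6.1%.

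The Lce1 genes, constitutive late differentiation genes, went the other way. Lce1m had the largest fall, to 1.79, 2.865 and 10.6 CPM in Card14E138A ears at day 5, against 117, 122.6 and 144 CPM in WT ears (-4.71 ± 0.44, adjusted p = 2e-08). At 1 month it was at 0.487, 0.856 and 2.92 CPM in Card14E138A ears, against 86.8, 103 and 141 CPM in WT ears (-6.37 ± 0.48, adjusted p = 9.24e-10). Its highest Card14E138A library lay far below the lowest WT library at both times. At day 5 the high Card14E138A values were those of replicates 1 and 3, at 10.6 and 9.155 CPM, and the other 4 lay between 1.79 and 3.56 CPM. Lce1m shares no 75-base word with any gene.

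Lce1a1, the Lce1 gene with the highest mean level, was at 29.1, 31.7 and 50.8 CPM in Card14E138A ears at day 5, against 96.7, 131 and 146 CPM in WT ears (-1.76 ± 0.32, adjusted p = 0.000142). At 1 month it was at 6.88, 18.6 and 54.05 CPM in Card14E138A ears, against 79.2, 92.2 and 178.5 CPM in WT ears (-2.28 ± 0.33, adjusted p = 4.83e-06). The groups did not overlap. Lce1l was at 7.48, 10.5 and 17.2 CPM in Card14E138A ears at day 5, against 51.4, 61.4 and 70.9 CPM in WT ears (-2.40 ± 0.37, adjusted p = 1.62e-05). At 1 month Lce1l was at 0.600, 2.99 and 10.01 CPM in Card14E138A ears, against 34.7, 39.6 and 66.2 CPM in WT ears (-3.53 ± 0.39, adjusted p = 1.3e-07). Lce1j was at 7.54, 9.45 and 14.3 CPM in Card14E138A ears at day 5, against 19.4, 23.3 and 29.04 CPM in WT ears (-1.22 ± 0.36, adjusted p = 0.0086). At 1 month Lce1j was at 0.970, 3.43 and 9.16 CPM in Card14E138A ears, against 12.8, 18.2 and 40.3 CPM in WT ears (-2.38 ± 0.38, adjusted p = 1.4e-05). In the 3 genes the highest Card14E138A library at 1 month was replicate 2 and the highest WT library at 1 month was replicate 3.

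Of the 10 other Lce1 genes, those that passed at day 5 fell by 1.06 to 2.23 on the log2 scale, and all 10 fell by 1.15 to 2.60 at 1 month. At day 5 the groups overlapped in Lce1f and Lce1k. In Lce1e, Lce1f, Lce1g, Lce1h and Lce1k the groups overlapped at 1 month. The day 5 call of Lce1f (-1.06 ± 0.37, adjusted p = 0.0251) was lost without a filter on low counts and without WT replicate 4, Card14E138A replicate 1 or Card14E138A replicate 4, and also without Card14E138A replicates 1 and 3 together. Lce6a was at 7.28, 11.1 and 15.5 CPM in Card14E138A ears at day 5, against 14.2, 20.7 and 27.5 CPM in WT ears. Its day 5 call was lost without a filter and without any 1 of 12 libraries, namely WT day 5 replicates 1 to 5, Card14E138A day 5 replicates 1, 2, 4, 5 and 6, and WT 1 month replicates 4 and 6. Lce1 genes other than Lce1m share 0.9% to 13.5% of their 75-base words with another gene.

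**Figure D4:**
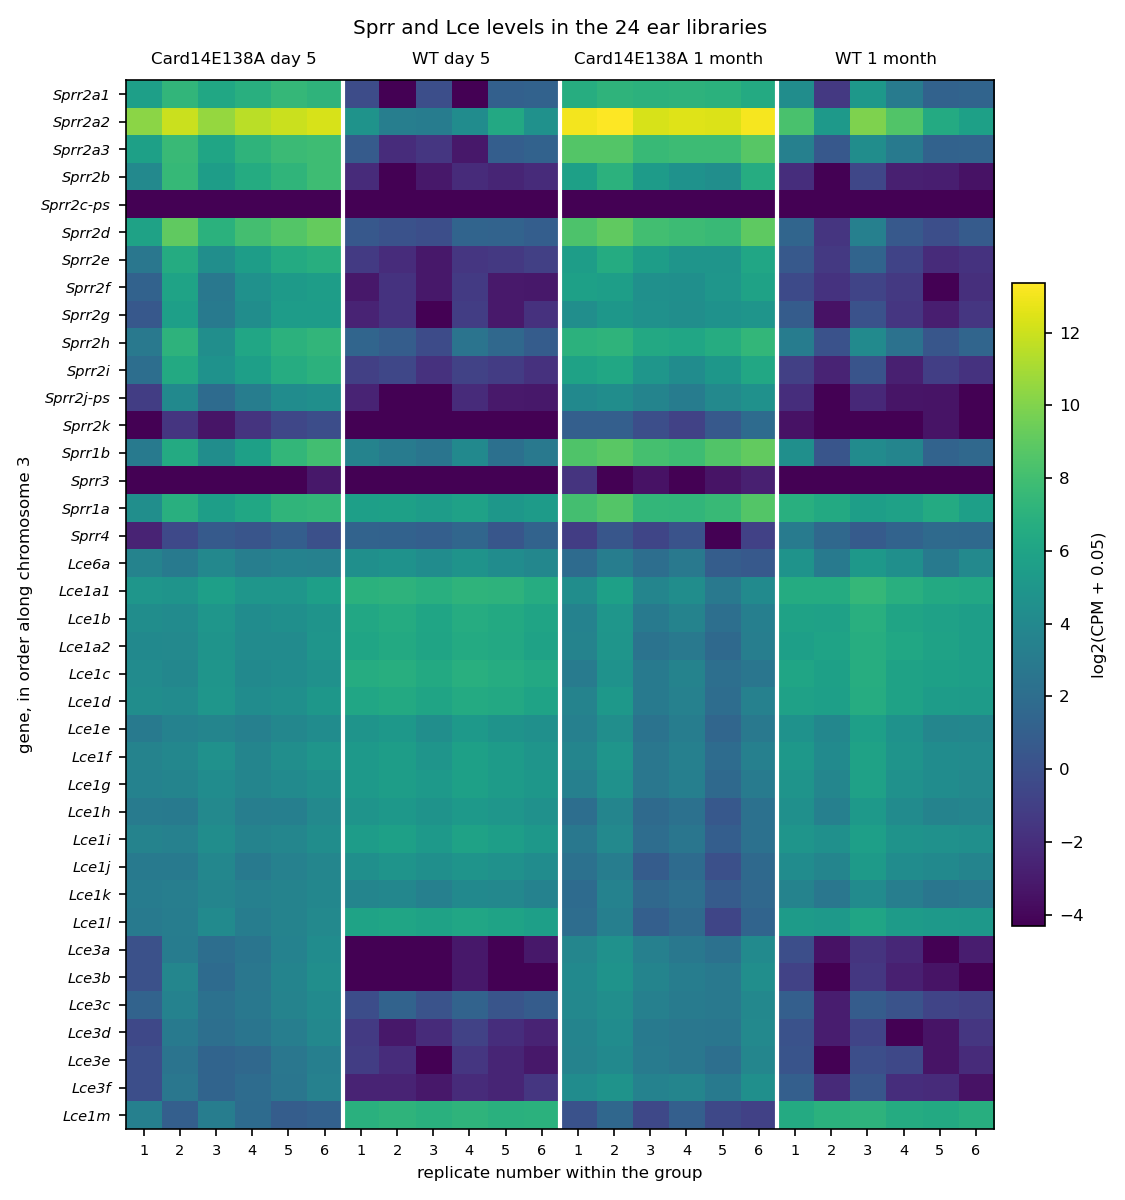
The colour gives log2(CPM + 0.05) of the 38 genes, in chromosome order from top to bottom, in the 24 libraries, with 6 columns each for Card14E138A day 5, WT day 5, Card14E138A 1 month and WT 1 month. Sprr2 and Lce3 rows are bright in Card14E138A and dark in WT columns, Lce1 rows show the opposite, and Sprr2c-ps is at 0 in all columns.

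Summed over each subfamily, the Sprr mean lay below the Lce1 mean in WT ears and above it in Card14E138A ears at both times. The exception among WT libraries was replicate 3 at 1 month, with 1162 CPM for Sprr and 1115 CPM for Lce1. The Lce3 mean stayed below the Lce1 mean in every group. The 17 Sprr genes together were at 4311 ± 2263 CPM in Card14E138A ears and 93.35 ± 24.3 CPM in WT ears at day 5, and at 9142 ± 2826 CPM in Card14E138A ears and 428 ± 396 CPM in WT ears at 1 month (SD, n = 6 each). The Sprr genes took 0.648% to 1.18% of all counts in Card14E138A ears at 1 month, against 0.0124% to 0.115% in WT ears. The 14 Lce1 genes were at 239 ± 63.8 CPM in Card14E138A ears and 868 ± 125 CPM in WT ears at day 5, and at 127 ± 95.8 CPM in Card14E138A ears and 670.1 ± 225 CPM in WT ears at 1 month. The 6 Lce3 genes were at 44.3 ± 31.1 CPM in Card14E138A ears and 2.23 ± 0.832 CPM in WT ears at day 5, and at 79.7 ± 37.3 CPM in Card14E138A ears and 2.86 ± 2.85 CPM in WT ears at 1 month. Of the summed Lce1 and Lce3 signal, Lce3 genes gave 3.42% to 22.8% in Card14E138A ears at day 5, against 0.175% to 0.344% in WT ears, and 30.0% to 52.2% in Card14E138A ears at 1 month, against 0.0644% to 1.18% in WT ears. These sums are not set per length of the genes, describe the libraries and carry no test.

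**Figure D5:**
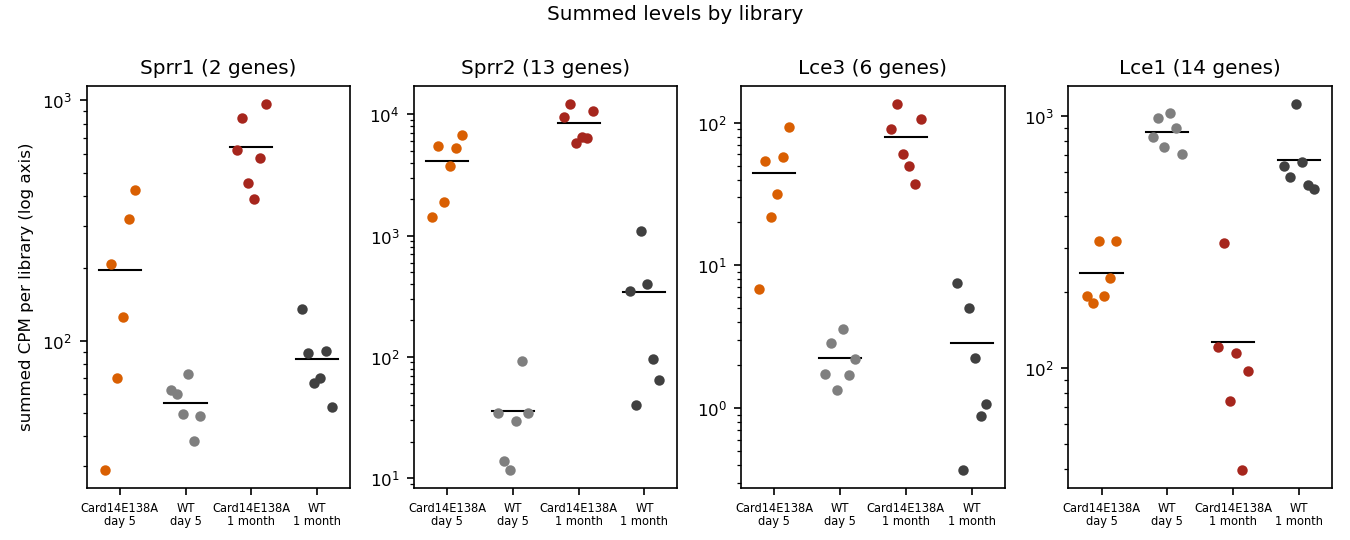
Summed CPM of the Sprr1, Sprr2, Lce3 and Lce1 genes in each library is plotted on log axes, with 1 point per library, a line at the group mean and the groups in the order Card14E138A day 5, WT day 5, Card14E138A 1 month and WT 1 month. Sprr2 sums of Card14E138A libraries (1427 CPM and more) all exceed those of WT libraries (1093 CPM and less), while the Sprr1 sums of the groups overlap at day 5.

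Set per kb of exon, which allows a rough comparison of levels between genes, the order of the genes differed between the genotypes. The length joins the exons of all transcripts of a gene, 2910 bases in Sprr2a2 and 681 in Sprr2d. The value of Sprr2a2 also depends on how RSEM divided the reads that it shares with Sprr2a1. At day 5 the highest level in Card14E138A ears was that of Sprr2a2 (1068 ± 516 CPM per kb), ahead of Sprr2d (482 ± 315) and Sprr2b (154 ± 108). Sprr1b (120.15 ± 116), Sprr1a (119 ± 71.7) and Sprr2h (117 ± 85.8 CPM per kb) followed and lay within each other's SD. In WT ears at day 5 the first was Lce1a1 (179 ± 26.9 CPM per kb), followed by Lce1m (135 ± 13.0), Lce1c (135 ± 17.4) and Lce1b (126 ± 21.8), which did not differ beyond their SD. At 1 month Sprr2a2 (2528 ± 776 CPM per kb) again led in Card14E138A ears, before Sprr2d (509 ± 209), Sprr1b (457 ± 146) and Sprr1a (326 ± 135), and in WT ears Lce1a1 (151 ± 52.6 CPM per kb) again led, before Lce1m (114 ± 21.9) and Sprr2a2 (107 ± 126). The place of Sprr2a2 in WT ears rested on replicate 3: without it Sprr2a2 was at 58.96 ± 53.92 CPM per kb (SD, n = 5), below 7 other members, while Lce1a1 (130.5 ± 17.84) and Lce1m (106.9 ± 15.77) kept the first places.

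Libraries of a group varied in their summed levels. In Card14E138A ears at day 5 the Sprr sum was lowest in replicates 1 and 3, at 1456 and 1981 CPM, and 3902 to 7153 CPM in the other 4. The Lce3 sum was lowest in the same replicates, at 6.82 and 21.9 CPM, against 31.6 to 94.2 CPM. The Lce1 sum did not set them apart: it was 193 CPM in replicate 1 and 318 CPM in replicate 3, with the others at 182 to 320 CPM. In WT ears the Sprr2 sum spanned 11.7 to 92.8 CPM at day 5 and 40.1 to 1093 CPM at 1 month, where replicate 3 was the highest and also had the highest Lce1 sum, 1115 CPM against 512 to 655 CPM in the other 5. In Card14E138A ears at 1 month the Lce1 sum was 313 CPM in replicate 2 and 39.6 to 122 CPM in the other 5, and replicate 2 also had the highest Lce3 and Sprr sums of its group. Without Card14E138A day 5 replicates 1 and 3, 20 members rose and 13 fell at day 5, and without the 3 libraries of high GC correlation 20 rose and 16 fell at 1 month.

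Whether the genotype difference itself differed between the times was tested by the interaction, which is the difference at 1 month minus the difference at day 5. Of the 36 members only Sprr2a1 passed (-3.43 ± 1.02, adjusted p = 0.0366), where 8.77% of all genes passed, 4.68% higher and 4.09% lower. Its level in Card14E138A ears was alike at the times, 122.9 ± 21.1 CPM at 1 month and 120.0 ± 48.8 CPM at day 5, and in WT ears it was 11.3 ± 13.3 CPM at 1 month and 1.02 ± 0.997 CPM at day 5 (SD, n = 6). The call was lost with the Sprr2a copies summed (-2.23 ± 0.90, adjusted p = 0.141), without a filter on low counts (adjusted p = 0.0862), and without any 1 of WT day 5 replicates 1 to 4, Card14E138A day 5 replicates 2 and 5 and WT 1 month replicates 1 and 3. Without Card14E138A 1 month replicate 3 the adjusted p was 0.05 after rounding. Lce1m missed the threshold (-1.66 ± 0.57, adjusted p = 0.0713) and passed with DESeq2 (-1.70, adjusted p = 0.0367), with the GC correlation of the libraries as a covariate (adjusted p = 0.0394) and without Card14E138A day 5 replicate 2, 5 or 6. Without Card14E138A day 5 replicates 1 and 3 its interaction was -0.64 (adjusted p = 0.526). Sprr2a2 (-2.21 ± 0.90, adjusted p = 0.148) and Lce1j (-1.16 ± 0.51, adjusted p = 0.183) came next. Without Card14E138A 1 month replicate 2, 7 members passed, all with a negative interaction: Sprr2a1, Lce1a2, Lce1b, Lce1j, Lce1k, Lce1l and Lce1m. Intervals this wide do not show that the genotype difference of the other members was alike at both times; for Lce3b the interaction was -2.69 ± 1.74.

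Between the times within Card14E138A ears, 4 members were higher at 1 month than at day 5 and 9 were lower, where 19.4% of all genes passed, 11.2% higher and 8.23% lower. The higher ones were Sprr2k (2.31 ± 0.58), Sprr1b (1.93 ± 0.66), Lce3f (1.72 ± 0.53) and Sprr1a (1.45 ± 0.36). The lower ones were Lce6a and the Lce1 genes b, c, h, i, j, k, l and m, with Lce1m at -1.91 ± 0.44 and Lce1l at -1.64 ± 0.37. The calls of Sprr1b, Lce1b and Lce1h were lost without a filter on low counts, and those of Sprr1b, Lce1b, Lce1c, Lce1h and Lce1i with the Card14E138A libraries fitted alone. With 1 library left out, Sprr1b was lost without WT day 5 replicate 2, Card14E138A day 5 replicate 1, 2, 3 or 4, or Card14E138A 1 month replicate 1, 2, 5 or 6. Lce3f was lost without Card14E138A day 5 replicate 3 or 1 month replicate 2. Lce1b and Lce1h were lost without Card14E138A day 5 replicate 3, 5 or 6 or 1 month replicate 1, 3, 4, 5 or 6, and Lce1b also without WT day 5 replicate 1. Lce1c was lost without Card14E138A day 5 replicate 3 or 1 month replicate 1 or 6. Time, age and library set cannot be told apart here, and the groups overlapped in every member, where 8.61% of all genes had groups apart, 5.05% higher and 3.56% lower. Without Card14E138A day 5 replicates 1 and 3 only 2 members were higher and 5 lower, and Lce1m no longer passed (-0.84, adjusted p = 0.113). Without the 3 libraries of high GC correlation 2 were higher and 4 lower, and without Card14E138A 1 month replicate 2 there were 2 higher and 14 lower. Without Card14E138A day 5 replicate 3, 2 were higher.

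In WT ears 3 members were higher at 1 month than at day 5 and 0 lower, where 9.09% of all genes passed, 6.28% higher and 2.81% lower. They were the Sprr2a copies, Sprr2a1 (3.46 ± 0.80, adjusted p = 0.00809), Sprr2a2 (3.45 ± 0.69, adjusted p = 0.0031) and Sprr2a3 (2.78 ± 0.67, adjusted p = 0.0112), and as 1 summed row the value was 3.43 ± 0.69 (adjusted p = 0.00307). The WT libraries of the times overlapped in each of the 3, as in every other member, where 5.07% of all genes had groups apart, 2.9% higher and 2.16% lower. Of the falling direction, 0 members had an unadjusted p under 0.05 with edgeR, 2 were lower when only WT libraries were fitted, and DESeq2 called 0 lower but 6 higher, with Lce3a, Lce3b and Lce3f added. The genotype comparisons at both times and these time comparisons share libraries, so their values are not separate evidence.

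A list of other genes of the cornified envelope did not move as one group. Beside structural genes it held the transglutaminase genes Tgm1, Tgm3 and Tgm5 and the keratin genes Krt1, Krt2 and Krt10. It also held the peptidoglycan recognition genes Pglyrp3 and Pglyrp4, so its counts are not of structural envelope genes alone. Of 23 tested, 7 rose and 6 fell at day 5 (median -0.07), and 11 rose and 9 fell at 1 month (median 0.74). The shares over all genes tested were 20.7% higher and 20.2% lower at day 5, and 25.5% higher and 21.5% lower at 1 month. Lor, which codes for loricrin, the main envelope protein, fell like the Lce1 genes, to 217 ± 105 CPM in Card14E138A ears against 998 ± 121 CPM in WT ears at day 5 (-2.20 ± 0.33, adjusted p = 1.29e-05), and at 1 month (-2.62 ± 0.34). Ivl, which codes for involucrin and lies between Sprr4 and Lce6a, did not pass at day 5 (-0.42 ± 0.28) or at 1 month (0.52 ± 0.28). Kprp, which lies among the Lce1 genes, fell at day 5 (-1.89 ± 0.29) and at 1 month (-2.83 ± 0.31). The transglutaminase genes Tgm1 (1.12 ± 0.26 and 1.20 ± 0.26) and Tgm3 (1.12 ± 0.19 and 2.07 ± 0.20), whose products crosslink the envelope, rose at both times. Crct1, a cysteine-rich gene beside Lce1m, did not pass at day 5 (-0.53 ± 0.28) and fell at 1 month (-1.08 ± 0.28). Krt1 was at 11716 ± 2780 CPM in Card14E138A ears and 856 ± 441 CPM in WT ears at 1 month. Krt2 was then at 67.8 ± 34.1 and 8148 ± 1922 CPM, and Flg2 at 3.97 ± 3.17 and 452 ± 201 CPM. Flg was lower in Card14E138A ears at day 5, at 52.1 ± 37.3 against 462 ± 146 CPM in WT ears. Its mean was higher in Card14E138A ears at 1 month, at 755 ± 309 against 377 ± 314 CPM, with overlap (SD, n = 6 each).

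Among 15 regulators of epidermal differentiation, 5 rose at day 5, and 7 rose and 1 fell at 1 month. Of all genes tested, 20.7% rose and 20.2% fell at day 5, and 25.5% rose and 21.5% fell at 1 month. Whether the list was called more often than other genes was not tested. The AP-1 genes of this list rose at both times, Junb by 1.91 ± 0.18 and 1.29 ± 0.18 and Fosl1 by 2.05 ± 0.37 and 1.84 ± 0.36. Other AP-1 genes were not on the list. Nfe2l2, which codes for the antioxidant regulator NRF2, also rose at both times (0.78 ± 0.12 and 1.08 ± 0.12). So did Cebpb (0.90 ± 0.23 and 0.83 ± 0.23) and Zfp750 (0.36 ± 0.12 and 0.81 ± 0.12). Grhl3 (0.88 ± 0.21) and Ovol1 (0.83 ± 0.17) rose at 1 month, Gata3 fell then (-0.68 ± 0.14), and Klf4, a terminal differentiation factor, did not pass at day 5 (-0.29 ± 0.13) or at 1 month (-0.20 ± 0.13). Levels of RNA say nothing of the activity of these factors at the promoters printed above.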

How the data were processed

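Single-end polyA libraries of 24 whole ears, 6 in each genotype-by-time group, were analysed. Values are RSEM expected counts per gene as deposited by the authors; RSEM 1.3.0, STAR 2.5.2, DESeq2 1.14.1 and GRCm38 are named per the submitters' processing notes, while the sources used here give neither the annotation release nor the use of strand. The 6.71% of values that were not whole were rounded. Gene symbols matched 51633 of 51912 identifiers. Genes passing edgeR's expression filter (17287) were fitted with edgeR 4.0.16 (R 4.3.3; robust quasi-likelihood, TMM factors, 1 coefficient per group, all 24 libraries), with Benjamini-Hochberg adjustment over all of them and a threshold of 0.05. SE is the absolute log2 fold change over the square root of F. CPM used TMM-scaled library sizes. Intervals and bounds cover counting error only.

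Tested on simulated day 5 counts of 17021 genes, the fit called 65 of the 66 genes given a 4-fold change and 54 of the 67 given a 2-fold change. It called 25 of the 67 given a 1.5-fold change, besides 10 genes left as they were. The changed genes all averaged above 1 CPM in WT ears at day 5. The rates do not cover members below that level, such as Sprr2b (0.119 CPM) and Lce3b (0.00971 CPM). No libraries of a group agreed within sampling noise (smallest chi-square per degree of freedom 4.86 over 60 pairs). Alternatives were other scalings, DESeq2 1.42.0, other filters, a fit not robust, counts not rounded, the compared libraries alone, a replicate block and each library left out. Chosen after seeing the data were leaving out 3 libraries of high GC correlation, leaving out 2 day 5 libraries, a GC covariate, summing the Sprr2a copies and, for the order of levels per kb, leaving out WT 1 month replicate 3. Members and gene lists were chosen with earlier results of these data known. Values in full are given, in each of Sprr, Lce1 and Lce3, for the 2 members of highest mean CPM and the 2 with the largest called rise and fall at each time, and for up to 4 with the smallest adjusted p of the interaction; Sprr1a, Sprr1b, Sprr2k, Sprr3 and Lce6a were added after their values were seen. Coordinates and the 75-base words shared between transcripts come from the GENCODE annotation of GRCm38.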

Additional observations from a re-analysis of the deposited data

Results flagged for a closer look

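Among 56 sets of 6 library values of the members described in full, 12 had a highest library set apart from the rest by Dixon's criterion, where chance gives about 1 in 20. Of these, 6 belonged to WT 1 month replicate 3: Sprr2a2 at 1005 CPM (next library 375.8), Sprr2d at 10.11 CPM (2.659), Sprr2b at 0.6317 CPM (0.1955), Lce1a1 at 178.5 CPM (112.2), Lce1l at 66.17 CPM (42.55) and Lce1j at 40.32 CPM (19.66). WT 1 month replicate 1 stood apart in Sprr4 at 8.173 CPM (next 3.45) and in Lce3a at 0.8995 CPM (0.2632). Card14E138A 1 month replicate 2 stood apart in Lce1a1 at 54.05 CPM (next 20.25) and in Lce1l at 10.01 CPM (3.956). WT day 5 replicate 5 stood apart in Sprr2a2 at 82.17 CPM (next 26.44), and WT day 5 replicate 4 held the only count of Lce3b in its group, 0.05828 CPM.

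The genotype difference of Sprr2a1 differed between the times, with an interaction of -3.43 on the log2 scale (edgeR, adjusted p = 0.0366), a call that was lost when the Sprr2a copies were summed (adjusted p = 0.141).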

How the results depend on the processing

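In the 12 other settings, 18 to 20 members rose and 12 to 15 fell at day 5, and 19 to 21 rose and 16 fell at 1 month. The time comparisons moved more, and the cause was not tested except where fewer libraries entered. For the interaction, 1 member was lower; with DESeq2 there were 2, with the GC covariate 2, with no filter 0 and with the replicate block 0, and leaving out 1 library gave 0 to 7. Over all genes, 809 were higher and 707 lower; the block gave 463 lower, leaving out the 3 GC libraries 1085 lower, and the GC covariate 1412 higher and 1288 lower. Within Card14E138A ears, 4 members were higher and 9 lower at 1 month; the compared libraries alone gave 5 lower, the block 2 higher, leaving out the GC libraries 2 higher and 4 lower, leaving out the 2 day 5 libraries 2 higher and 5 lower, and leaving out 1 library 2 to 4 higher and 6 to 14 lower. Over all genes, 1937 were higher and 1423 lower, against 1264 and 845 with the compared libraries alone and 2637 lower with the GC covariate. Within WT ears, 3 members were higher and 0 lower, against 6 higher with DESeq2 and 2 lower with the compared libraries alone. Over all genes, 1086 were higher and 486 lower. DESeq2 gave 1864 higher, the compared libraries alone 1755 and leaving out the GC libraries 1745; no filter gave 266 lower, the replicate block 288 and the GC covariate 1060; leaving out 1 library gave 651 (without WT replicate 5 at 1 month) to 2001 higher (without WT replicate 1 at 1 month) and 272 to 1025 lower.

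Interactions that were not called changed sign. For Sprr2j-ps (0.38) the value was -0.09 without the GC libraries, -0.12 without the 2 day 5 libraries and -0.1 to 1.01 with 1 library left out. For Sprr2d (-0.62) it was -0.86 to 0.38 with 1 library left out, the positive value without WT 1 month replicate 3. The labels do not say whether a replicate number marks a shared animal, litter or day. Same-numbered Card14E138A and WT libraries correlated at -0.16 to 0.051 at day 5 and -0.73 to 0.26 at 1 month. These correlations cannot settle whether libraries were paired. With the replicate block the Sprr2a1 interaction was -3.28 (adjusted p = 0.102), the day 5 calls of Sprr1a and Lce6a were lost, and so were those of Sprr1b and Lce3f between the times in Card14E138A ears. The interaction has no value from the compared libraries alone, since it uses all 4 groups. Depth limits Sprr2k, Sprr3, Lce3a and Lce3b, whose WT day 5 libraries held 0 to 2 counts in all.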
